A study of Rattus norvegicus with 60 samples.

Results

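The clustered protocadherin locus of the rat lies on chromosome 18 and holds the alpha, beta and gamma arrays of protocadherin genes, one behind the other. It was taken here from the lowest start to the highest end of the genes whose symbol in the RNA data marks them as alpha, beta or gamma protocadherins, which gave chr18:29648344-30660582 in the rat build rn5, a stretch of 1012239 bp. It covers 2026 of the 5805202 bins of 500 nt in which captured methylated DNA was counted, and 42 of the 22865 genes of the RNA data (10 alpha, 19 beta and 13 gamma genes). All 42 lie on the + strand. Another 8 genes lie inside the stretch, namely Slc25a2, Taf7, RGD1563159 and 5 genes without a symbol inside the gamma array. The nearest genes outside it are Zmat2 and Diap1.

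The libraries came from hippocampal CA1 tissue of Sprague-Dawley rats aged 90 to 120 d, and the groups are labelled threat, place and naive in a study of contextual threat recognition training read at 1 h and at 24 h. Methylated DNA was captured with a methyl-CpG-binding domain protein and sequenced (MBD sequencing), with 3 threat, 4 place and 3 naive captured libraries and 3 input libraries, which were not captured, at each time. PolyA+ RNA was sequenced from 8 threat and 6 place libraries at 1 h, 6 threat and 5 place libraries at 24 h, and 9 naive libraries for which the labels give no time. The labels do not describe the experience of place and threat animals any further, and they do not say that replicates are separate animals, so p-values measure the spread between these libraries, which may be technical.

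Clustered protocadherins are adhesion proteins of the neuronal surface that pair like with like between cell membranes, and the set a neuron displays lets its branches tell self from non-self. In the mouse, each variable first exon has a promoter of its own, and a neuron uses only some of these promoters, chosen largely at random on each chromosome. Alpha and gamma first exons are spliced to constant exons at the end of their array, whereas each beta gene is a single exon. Work in mice has tied DNA methylation at these promoters to their silence, and the insulator protein CTCF and cohesin to their activity. MBD capture enriches fragments that carry several methylated CpG sites, so a bin can be high for its methylation, for its number of CpG sites, or both.

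The promoter sequences below show how unequal the CpG supply of these gene starts is. They run from 250 bases before to 50 bases after the annotated start, on the + strand, and come from RefSeq with build GRCr8, which differs from the build of the bins. CpG sites are in capitals. PCDHA4 (chr18:28876919-28877218, 10 CpG sites) and Pcdhga12 (chr18:29843647-29843946, 14 sites) are shown because captured DNA was above input at their starts. Pcdhb15 (chr18:29454084-29454383) is shown as the promoter with the fewest CpG sites, 1. Pcdhb8 (chr18:29339226-29339525, 6 sites) and Pcdhb9 (chr18:29379060-29379359, 4 sites) are shown because captured DNA was below input at their starts.
PCDHA4: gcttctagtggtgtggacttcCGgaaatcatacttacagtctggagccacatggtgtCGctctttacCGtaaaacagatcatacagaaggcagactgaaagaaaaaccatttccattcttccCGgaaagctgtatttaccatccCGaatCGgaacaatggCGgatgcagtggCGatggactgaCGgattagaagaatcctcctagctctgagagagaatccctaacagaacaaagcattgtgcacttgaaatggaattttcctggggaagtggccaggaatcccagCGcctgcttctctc
Pcdhga12: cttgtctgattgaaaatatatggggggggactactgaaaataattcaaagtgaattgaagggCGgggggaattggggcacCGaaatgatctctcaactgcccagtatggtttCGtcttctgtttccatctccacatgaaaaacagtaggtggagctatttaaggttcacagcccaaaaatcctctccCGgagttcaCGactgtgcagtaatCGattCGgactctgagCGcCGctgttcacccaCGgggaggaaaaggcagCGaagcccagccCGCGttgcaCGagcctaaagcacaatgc
Pcdhb15: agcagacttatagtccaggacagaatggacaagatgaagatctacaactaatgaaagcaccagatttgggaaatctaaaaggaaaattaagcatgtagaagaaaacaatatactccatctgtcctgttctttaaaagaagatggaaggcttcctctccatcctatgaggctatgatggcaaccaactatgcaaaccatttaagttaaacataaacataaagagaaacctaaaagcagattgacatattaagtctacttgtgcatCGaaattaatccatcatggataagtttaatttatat
Pcdhb8: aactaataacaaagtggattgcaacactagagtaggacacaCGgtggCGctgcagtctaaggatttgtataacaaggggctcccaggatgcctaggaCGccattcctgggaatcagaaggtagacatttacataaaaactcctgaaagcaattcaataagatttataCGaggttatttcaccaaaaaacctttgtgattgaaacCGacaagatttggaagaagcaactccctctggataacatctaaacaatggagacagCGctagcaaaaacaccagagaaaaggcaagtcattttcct
Pcdhb9: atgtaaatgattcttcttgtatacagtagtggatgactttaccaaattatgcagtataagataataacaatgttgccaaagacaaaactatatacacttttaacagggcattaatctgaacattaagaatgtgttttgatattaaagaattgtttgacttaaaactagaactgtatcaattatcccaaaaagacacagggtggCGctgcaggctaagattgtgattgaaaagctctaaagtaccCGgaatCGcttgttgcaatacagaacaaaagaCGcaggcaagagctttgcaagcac

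RefSeq promoters were found by symbol for 27 of the 42 genes, and these 27 stood in the same order in both builds. They held a median of 7 CpG sites, with a range of 1 to 14, and the median over all 33469 promoters of the table was also 7. The letters CGCT, the core of an element shared by most clustered protocadherin promoters in the mouse, were found on either strand in 25 of the 27, against 60.9% of all promoters. Pcdhb15 and Pcdhga1 had no match in this window. A match is a description of letters and not a site of binding.

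The deposited bin values are RPKM and could be turned back into whole reads at 100% of values. Captured libraries held 31.4 to 35.7 M reads at 1 h and 42.2 to 58.5 M at 24 h, and inputs 37.2 to 39.9 M and 50.4 to 59.5 M. The locus drew 15697 to 25358 reads per captured library, which leaves a counting error of 0.63 to 0.80% on its mean, without any allowance for PCR duplicates. The capture itself differed between the times. Between 40.0 and 54.1% of locus bins held no read in captured libraries at 1 h, and between 7.4 and 14.2% at 24 h. The share of all reads that fell in bins tested for group differences, defined below, was 41.8 to 55.3% at 1 h and 9.08 to 12.6% at 24 h. No level is therefore compared between the times as an amount of methylation.

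Captured DNA at the locus was concentrated over the stretch that follows the annotated start of the protocadherin genes. Each gene was given a first exon window, the 5 bins whose centres lie within the 2500 nt that follow its annotated start. These 210 bins are 10.4% of the locus. They held 54.6% of the captured signal at 1 h and 29.6% at 24 h, against 21.3% and 10.5% of the input signal. The contrast was seen in every captured library. The mean RPKM of the windows was 9.23 to 11.7 times that of the other locus bins in the 10 captured libraries of 1 h, against 2.15 to 2.53 times in the 3 inputs. At 24 h it was 2.90 to 4.63 times in captured libraries, against 0.984 to 1.06 times in inputs. The input at 1 h was thus itself higher over the windows, and how far that enters the captured values of 1 h was not tested.

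The alpha array had the highest windows. At 1 h captured DNA averaged 4.62 RPKM over alpha windows, 6.73 times the input mean. Beta windows averaged 2.19 RPKM (4.31 times input) and gamma windows 1.80 RPKM (3.72 times input). At 24 h the averages were 1.04 RPKM over alpha windows (3.47 times input), 0.785 over beta (2.66 times) and 0.912 over gamma (2.89 times). Bins between genes averaged 0.178 RPKM captured against 0.218 input at 1 h, and 0.243 against 0.302 at 24 h. The 31 bins of the other genes inside the locus stood near the windows, at 2.31 RPKM captured against 0.428 input at 1 h and 0.872 against 0.321 at 24 h.

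Captured DNA was tested against input in each bin with limma on log2(RPKM + 0.25), with Benjamini-Hochberg adjustment over all bins of the genome that held a read, and a bin was called at an adjusted p under 0.05. At 1 h captured DNA was above input in 363 of 1940 locus bins (18.7%), where 15.1% of all bins were called higher, and below it in 1232 (63.5%), where 60.2% were. At 24 h it was above input in 407 of 1943 locus bins (20.9%), against 19.5% of all bins, and below it in 899 (46.3%), against 38.4% of all bins. Taken over the whole locus, the share of bins above input was near the background of the genome. Within the windows it was higher: 175 of 210 bins were above input at 1 h and 182 of 210 at 24 h. By array, 48 of 50 alpha bins were above input at both times. Of 95 beta bins, 72 were above at 1 h and 73 at 24 h, and of 65 gamma bins, 55 and 61.

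**Figure D1:**
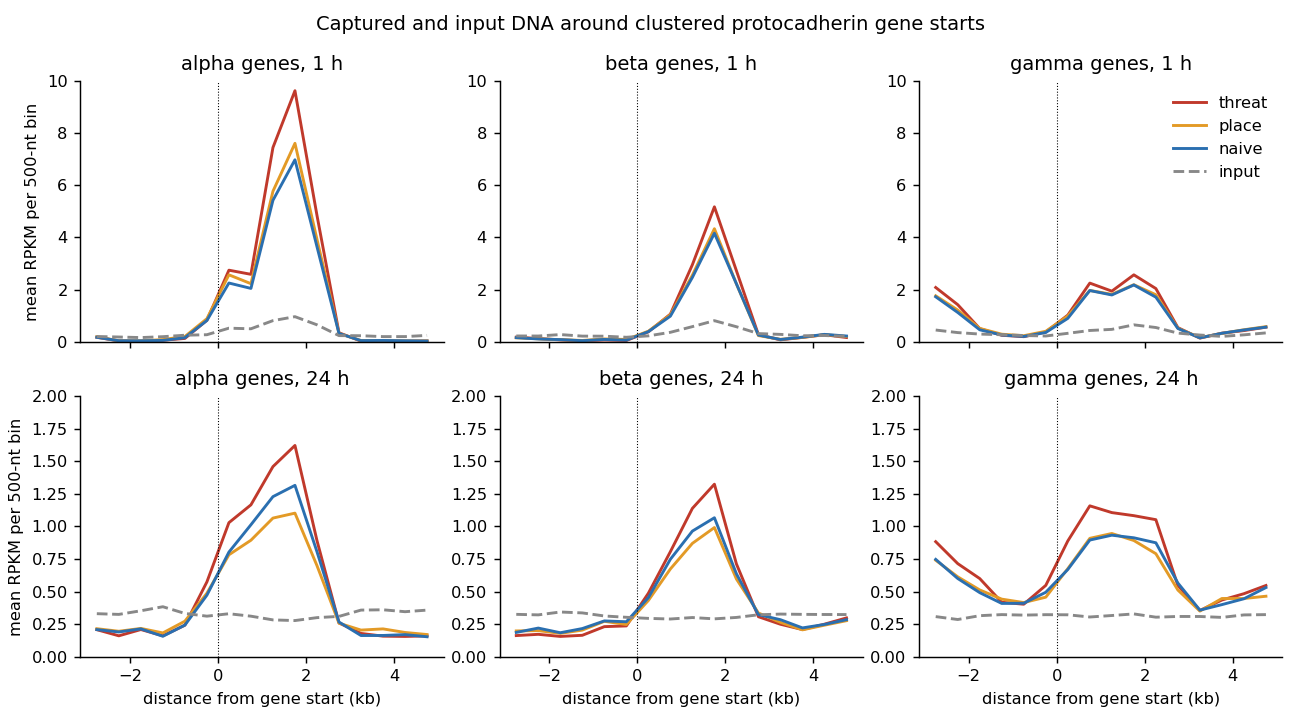
Mean RPKM per 500-nt bin (y axis, scales differ between the rows) against distance from the annotated gene start in kb (x axis) for alpha, beta and gamma genes at 1 h (top) and 24 h (bottom); lines are the means of threat, place, naive and input libraries. Captured DNA of the alpha genes at 1 h averaged 0.0292 RPKM 1750 nt before the start, 8.03 RPKM 1750 nt after it and 0.0378 RPKM 3250 nt after it.

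At 1 h the signal lay inside the gene rather than at its start. In all 42 genes the highest window bin at 1 h lay beyond the bin that holds the start. Where the start bin has its centre before the start, as in Pcdhga10, it is not part of the window. This count was therefore partly fixed by the choice of window, while the levels by distance below include bins before the start. The centre of the highest window bin stood a median of 1702 nt past the start in alpha genes, 1738 nt in beta genes and 1067 nt in gamma genes. The level of that bin had medians of 9.24, 5.03 and 2.49 RPKM. As the plot of distance from the start shows, the mean captured level of alpha genes at 1 h was 0.845 RPKM 250 nt before the start, 2.53 RPKM 250 nt past it and 8.03 RPKM 1750 nt past it. The beta genes followed the same course from a lower beginning, with 0.0665 RPKM 250 nt before the start, 0.391 RPKM 250 nt past it and 4.53 RPKM 1750 nt past it. The input of alpha genes at 1 h also rose, from 0.269 RPKM 250 nt before the start to 0.961 RPKM 1750 nt past it. At 24 h the course was flatter. Captured DNA 250 and 1750 nt past the start then averaged 0.863 and 1.32 RPKM in alpha genes. It averaged 0.455 and 1.11 RPKM in beta genes and 0.738 and 0.956 RPKM in gamma genes.

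In the bin that holds the gene start, the arrays differed in how many genes had captured DNA above input. That bin was above input at 1 h in 9 of 10 alpha genes, 4 of 19 beta genes and 9 of 13 gamma genes, and below input in 0, 6 and 1 of them. At 24 h it was above input in 8 alpha, 4 beta and 7 gamma genes, and below input in 6 beta genes and none of the others. Of all bins of the genome, 15.1% were above and 60.2% below input at 1 h, and 19.5% and 38.4% at 24 h. A bin below input is thus common, and the 6 of 19 beta genes do not exceed these shares. The start bin of PCDHA4 averaged 2.52 RPKM captured against 0.594 input at 1 h, and 0.886 against 0.338 at 24 h. The start bin of Pcdhga12, the last gamma gene listed in the RNA data, averaged 1.76 RPKM captured against 0.317 input at 1 h. At the start of Pcdhb9, captured DNA averaged 0.0049 RPKM against 0.154 input at 1 h and 0.0903 against 0.31 at 24 h. The same gene reached 5.97 RPKM in its highest window bin, 2109 nt past its start. Pcdhb8 had a start bin of 0.0239 RPKM captured against 0.137 input at 1 h, and a highest window bin of 3.21 RPKM. Pcdhb15 had 0.497 RPKM captured against 0.26 input in its start bin at 1 h. The distances from its start to those of Pcdhb14 and Pcdhb19 differ between the 2 builds. The promoter with a single CpG shown above may thus lie outside that bin. Across the 27 genes with a RefSeq promoter, the number of CpG sites and the captured level of the start bin had a Spearman correlation of 0.527 at 1 h and 0.576 at 24 h. These are descriptions across genes that share libraries, depth and base composition. A RefSeq promoter and the start bin of the same gene need not be the same stretch of DNA.

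Set beside the same window of all genes, the protocadherin windows were among the most captured of the genome. These windows lie past the start. For the 37 genes with a row under 4000 nt they cover most or all of the row, which need not hold for other genes. The same window taken over 22864 genes had a median of 0.142 RPKM captured at 1 h, and 9.46% of genes reached 1 RPKM. The 42 protocadherin genes had a median of 2.28 RPKM, and 97.6% of them reached 1 RPKM. At 24 h the medians were 0.882 RPKM for the 42 genes and 0.207 RPKM for all genes. At or above the 95th percentile of all genes stood 37 of the 42 genes at 1 h and 36 at 24 h. PCDHA5, picked out here for its value, had the highest window of the locus at 1 h, at 6.01 RPKM. Pcdhac2, picked out likewise, had the lowest at 0.817 RPKM, which was the 87.4th percentile of all genes. Pcdhac2 is a C-type alpha gene, which mouse neurons transcribe more constantly than the other alpha genes.

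**Figure D2:**
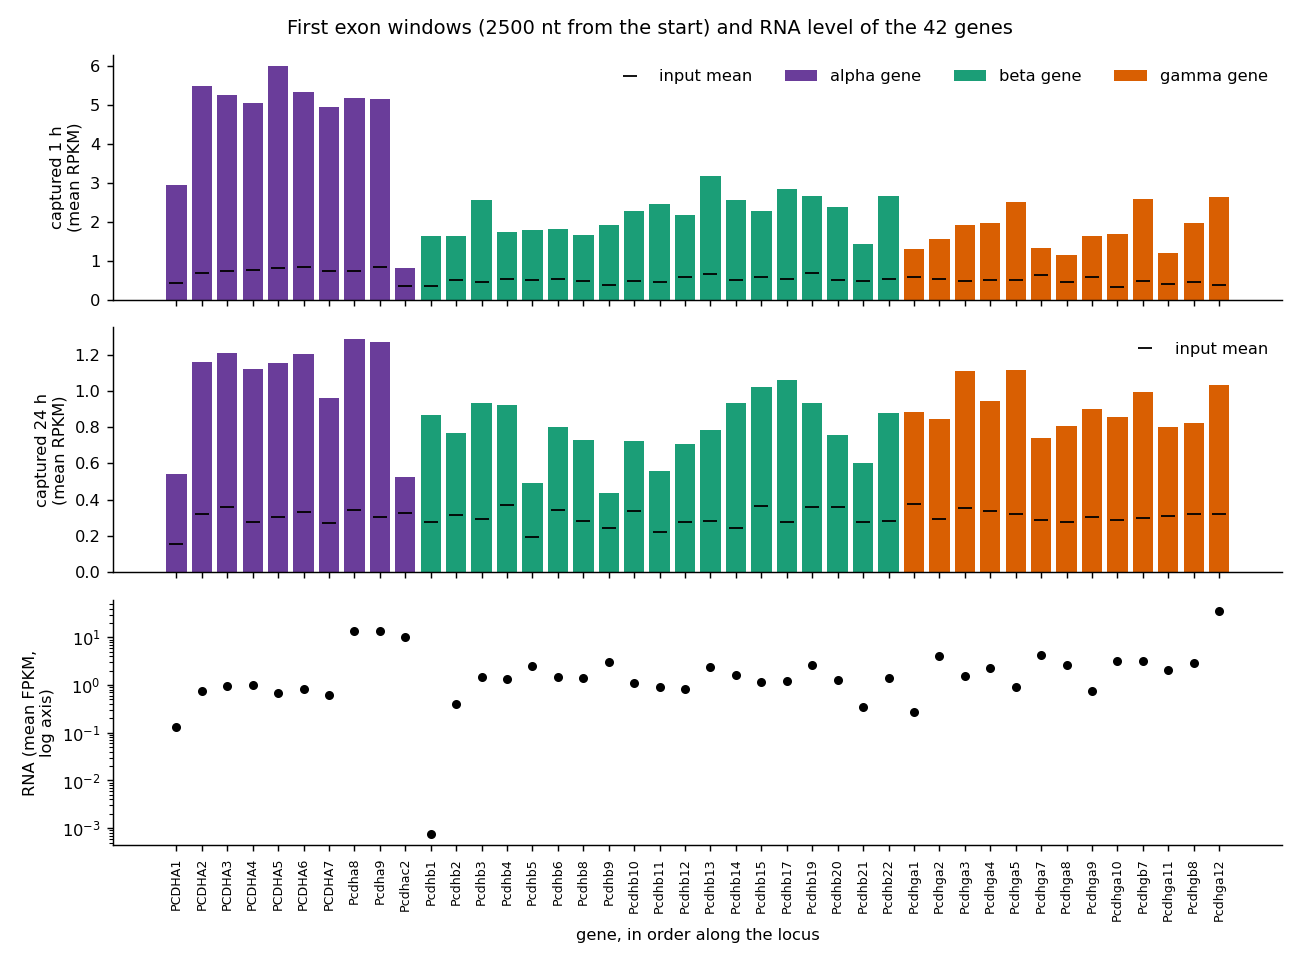
Mean captured RPKM in the first exon window of each of the 42 genes at 1 h (top) and 24 h (middle), with a dash for the input mean, and mean FPKM over 34 RNA libraries on a log axis (bottom); genes run in their order along the locus and colours mark the arrays. PCDHA5 is highest at 1 h with 6.01 RPKM, Pcdhac2 lowest with 0.817, and the RNA row ranges up to 34.9 FPKM for Pcdhga12.

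The most captured bins differed between the times. At 1 h, all 10 bins with the highest captured mean lay in the alpha array, 7 of them in first exon windows. The highest began at 29716501 and lay 14936 nt past the start of Pcdha9, inside the long row of that gene. It held 15.4, 12.7 and 10.1 RPKM in threat, 9.87, 8.09, 9.97 and 13.7 in place, 8.18, 8.76 and 10.2 in naive, and 0.987, 0.907 and 1.04 in input libraries. Every captured library was thus far above every input. The next highest was the PCDHA5 bin that begins at 29679001, with 14.1, 13.8 and 11.0 RPKM in threat, 10.4, 7.04, 9.34 and 12.4 in place, 8.59, 9.64 and 10.1 in naive, and 1.63, 1.11 and 1.00 in input libraries.

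At 24 h, 6 of the 10 highest bins lay in first exon windows, all of the alpha array, and the other 4 lay between genes. The bin that begins at 30116001, between Pcdhb5 and Pcdhb6, was the highest, with 2.78, 3.09 and 1.90 RPKM in threat, 2.18, 1.98, 1.54 and 1.63 in place, 2.46, 2.10 and 1.32 in naive, and 0.481, 0.564 and 0.254 in input libraries. It ranked 75th at 1 h, with a captured mean of 4.01 RPKM. Only 3 bins were among the highest 10 at both times, in PCDHA3, PCDHA4 and Pcdha9.

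The ratio between arrays, which does not depend on how much of a library falls in the locus, also differed with time. Alpha windows stood at 1.21 ± 0.03 times the gamma windows in naive libraries of 24 h and at 2.38 ± 0.06 times in naive libraries of 1 h (SD, n = 3 each). Gamma windows stood at 1.11 ± 0.04 times the beta windows at 24 h and at 0.835 ± 0.031 times at 1 h. The exact 2-sided permutation test gave p = 0.1 for both ratios, the smallest p that 3 libraries against 3 allow. The inputs moved too, with alpha over gamma at 0.943 to 0.970 at 24 h and 1.29 to 1.51 at 1 h. Each time has its own libraries and inputs, so time and any difference in how the sets of libraries were made cannot be told apart.

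Group differences were tested at each time in bins that averaged at least 1 RPKM over the 10 captured libraries and at least 2 times the input mean. These were 248 locus bins at 1 h (12.2% of the locus, against 6.04% of bins genome-wide) and 132 at 24 h (6.52%, against 1.47%). The average covers all groups, so a bin could pass only because a single group was high. Differences are on the log2(RPKM + 0.25) scale from limma, which understates the change of low bins, with Benjamini-Hochberg adjustment over all bins tested in the genome. The tested locus bins held a median of 43 to 68 reads per library at 1 h and 27.5 to 56 at 24 h.

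At 24 h and on the deposited scale, captured DNA was higher in threat than in place libraries over much of the locus, in all 3 arrays. Of 132 locus bins, 27 were called, which is 20.5%, and 7.7% of all tested bins of the genome were called in this comparison. All 27 were higher in threat, as were 7.69% of all tested bins. The locus bins had a median difference of 0.344, against 0.275 over all tested bins, and 128 of the 132 were higher in threat. The calls fell to 7 of 26 alpha window bins, 7 of 32 beta, 3 of 24 gamma, 4 of 17 in the downstream parts of long gene rows, 4 of 18 between genes and 2 of 15 in the other genes. Their differences ran from 0.48 to 0.79, with a median of 0.56, and their adjusted p from 0.0292 to 0.0494, while the first bin outside the threshold had 0.0527. Among the called bins, the one that begins at 30522501 averaged 1.39 RPKM in threat, 0.847 in place and 0.840 in naive libraries. Only its threat mean reached the 1 RPKM of the filter.

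The 17 called window bins belonged to 11 genes: PCDHA3, PCDHA4, Pcdha8 and Pcdha9 of the alpha array, Pcdhb13, Pcdhb17, Pcdhb19 and Pcdhb22 of the beta array, and Pcdhga3, Pcdhgb7 and Pcdhga12 of the gamma array. All of them encode variable adhesion domains of the protocadherin surface code. Their centres lay 436 to 2404 nt past the gene start, with a median of 1428 nt. None of the 17 was a start bin of a gene with its promoter shown above, but of those start bins only that of Pcdhga12 was tested. The others averaged 0.886 RPKM (PCDHA4), 0.718 (Pcdhb15), 0.106 (Pcdhb8) and 0.0903 (Pcdhb9) at 24 h, under the 1 RPKM of the filter.

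The PCDHA4 bin that begins at 29671501, centred 1692 nt past the start of the gene, held 2.18, 2.01 and 2.16 RPKM in threat and 1.62, 1.06, 0.952 and 1.33 RPKM in place libraries of 24 h. The threat libraries were all above the place libraries, by 0.69 ± 0.16 (log2, SE; limma adjusted p = 0.0292). The naive libraries had 1.47, 1.59 and 1.39 RPKM and the inputs 0.21, 0.349 and 0.349.

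The lowest p of the locus belonged to the bin that begins at 29709501, inside the long row of Pcdha9 and 7936 nt past its start. It held 1.82, 1.98 and 1.99 RPKM in threat and 1.45, 1.00, 1.06 and 0.644 RPKM in place libraries, a difference of 0.79 ± 0.18 (log2, SE; limma adjusted p = 0.0292). Naive libraries spread over both ranges, with 1.86, 1.46 and 0.98 RPKM. In the beta array, the Pcdhb19 bin that begins at 30283001 averaged 2.04 ± 0.20 RPKM in threat and 1.22 ± 0.32 RPKM in place libraries (SD, n = 3 and 4), a difference of 0.66 ± 0.17 (limma adjusted p = 0.0331). In the gamma array, the Pcdhga12 bin that begins at 30608501 averaged 1.34 ± 0.22 RPKM in threat and 0.827 ± 0.318 RPKM in place libraries, a difference of 0.60 ± 0.18 (limma adjusted p = 0.0438), and here the groups overlapped. In 23 of the 27 called bins they did not, but these bins were picked for a low p in this same comparison. The share of all tested bins without overlap is not given here, so the count is not a result about the locus.

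These calls depend on how libraries are scaled and on single libraries. The share of all reads in tested bins of the genome was 12.6, 12.2 and 11.2% in threat and 10.3, 9.83, 9.08 and 9.72% in place libraries of 24 h, higher in every threat than in any place library, and 6566 of 6570 bins called in the genome were higher in threat. With median-ratio scaling, which brings the median difference of all tested bins to 0.003, none of the 132 locus bins was called in limma (lowest adjusted p = 0.803), and with quantile normalization none was either (lowest adjusted p = 0.736), where 12 and 13 had an unadjusted p under 0.05. The locus median stayed above that of all bins by 0.068 on the deposited scale, 0.064 after median-ratio scaling and 0.069 after quantile normalization, with 90, 90 and 89 of the 132 bins above the median of all bins. Leaving out 1 library gave 0 calls without threat replicate 1, threat replicate 2, place replicate 3 or place replicate 4, 7 without place replicate 2 and 48 without place replicate 1. The share of all tested bins called without each library was not recorded. What the larger share of reads in tested bins contributes was not tested beyond these values.

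**Figure D3:**
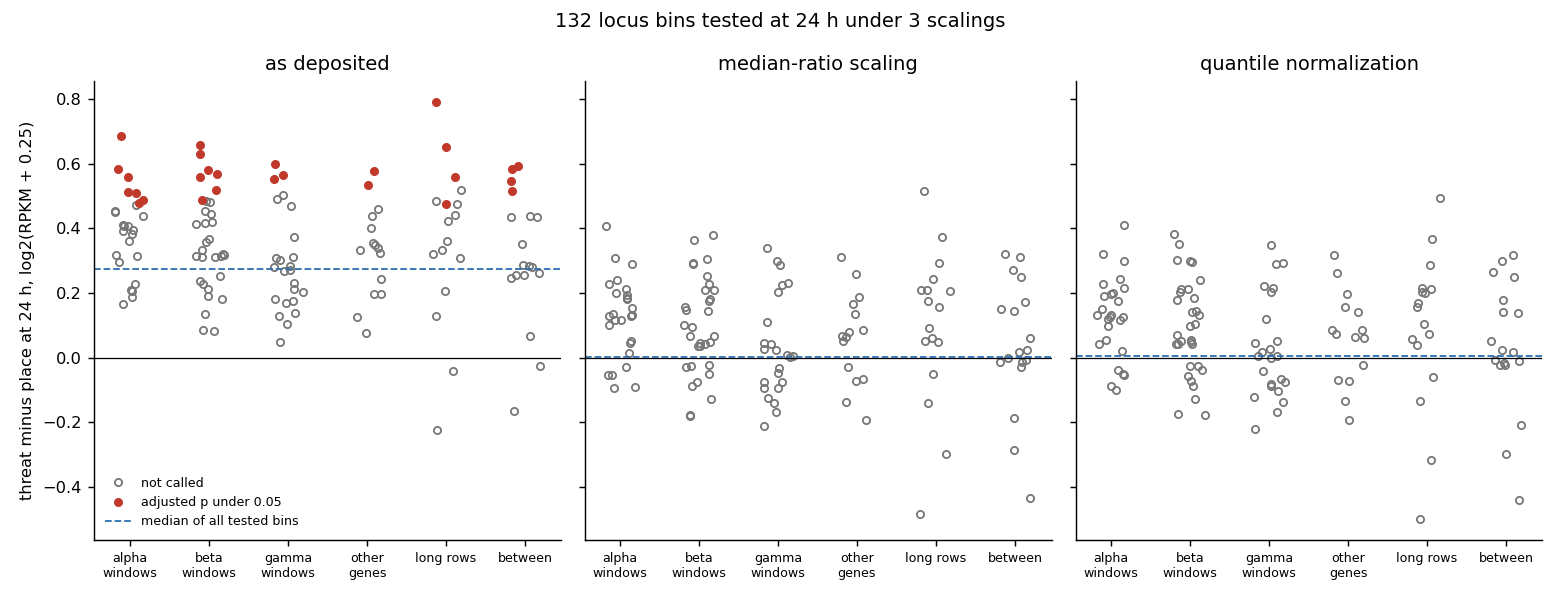
Threat minus place difference at 24 h on the log2(RPKM + 0.25) scale (y axis) for the 132 tested locus bins, by part of the locus (x axis), as deposited, after median-ratio scaling and after quantile normalization; filled points passed an adjusted p of 0.05 and the dashed line is the median of all tested bins of the genome. On the deposited scale 27 points are filled and the dashed line stands at 0.275; on the other scales none is filled and the line stands at 0.003 and 0.004.

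Averaged over whole windows on the same deposited scale, threat libraries of 24 h lay above both other groups in each array, and after rescaling they did not. Alpha windows held 1.30, 1.26 and 1.13 RPKM in threat, 1.05, 0.890, 0.812 and 0.882 in place, and 1.09, 1.03 and 0.983 in naive libraries. Beta windows held 0.952, 0.879 and 0.850 RPKM in threat, 0.775, 0.767, 0.636 and 0.674 in place, and 0.798, 0.805 and 0.719 in naive libraries. Gamma windows held 1.11, 1.05 and 1.02 RPKM in threat, 0.934, 0.879, 0.747 and 0.812 in place, and 0.882, 0.864 and 0.825 in naive libraries. The lowest threat library was above the highest place and the highest naive library in all 3 arrays, while place and naive overlapped. Divided by the median-ratio size factors, alpha windows held 1.06, 1.08 and 1.03 RPKM in threat, 1.03, 0.945, 0.958 and 0.952 in place, and 1.07, 1.05 and 1.09 in naive libraries. Threat then overlapped naive in alpha and gamma windows, lay below every naive library in beta windows, and overlapped place in beta and gamma windows. In alpha windows the lowest threat library still lay above the highest place library, at 1.033 and 1.031 RPKM.

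Over all windows and as deposited, threat libraries averaged 1.03 ± 0.06 RPKM, place libraries 0.800 ± 0.077 and naive libraries 0.861 ± 0.041 (SD, n = 3, 4 and 3). The exact 2-sided permutation test gave p = 0.0571 for threat against place and p = 0.1 for threat against naive, the smallest values these numbers of libraries allow, and 0.353 each after Benjamini-Hochberg adjustment over the 30 tests of this kind. The log2 differences were 0.36 from place and 0.25 from naive libraries, and 0.04 and -0.02 after division by the size factors (exact permutation p = 0.343 and 0.3). As deposited, the mean over all other locus bins did not follow: it was 0.238 ± 0.004 RPKM in threat, 0.244 ± 0.004 in place and 0.249 ± 0.009 in naive libraries. Most of these bins were too low to be tested, and the 50 that were tested did follow. Their median difference of threat from place was 0.29 between genes, 0.42 in long gene rows and 0.34 in other genes. In alpha, beta and gamma window bins it was 0.41, 0.35 and 0.28. Of the 42 gene windows, 41 had a higher mean in threat than in place and 38 a higher mean in threat than in naive libraries, whereas 7 were higher in place than in naive libraries.

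**Figure D4:**
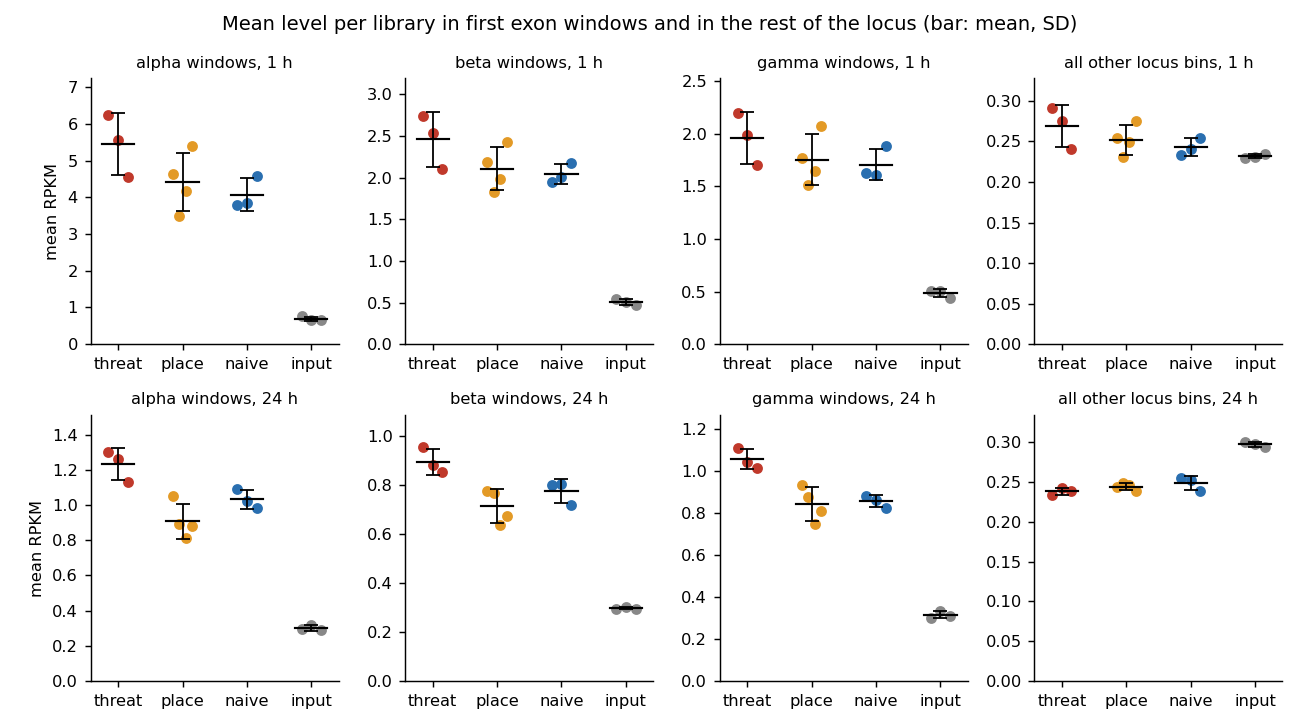
Mean RPKM per library (y axis from 0, scales differ between panels) in alpha, beta and gamma first exon windows and in all other locus bins at 1 h (top) and 24 h (bottom); each point is a library, bars are the mean and SD of threat, place, naive and input groups. On this deposited scale, the threat points of 24 h lie above all place and naive points in the alpha, beta and gamma windows, and below most of them in the other locus bins; divided by median-ratio size factors, which is not drawn, threat and naive libraries overlap in the alpha and gamma windows.

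Against naive libraries at 24 h no locus bin passed the threshold in limma. For threat against naive, 0 of 132 bins were called, where 0.0105% of all tested bins were. At an unadjusted p under 0.05 there were 31 (23.5%), against 23.1% of all bins. The median difference was 0.269 in the locus and 0.232 over all bins. Of the 132 bins, 124 (93.9%) were higher in threat, against 92.2% of all bins. With median-ratio scaling the locus median was 0.041, 76 of the 132 bins were higher in threat and 6 had an unadjusted p under 0.05, against 4.66% of all bins. With quantile normalization the median was 0.034, 77 bins were higher and 5 had an unadjusted p under 0.05, against 4.71% of all bins. On the deposited scale, the lowest p was that of the Pcdhb19 bin that begins at 30283001, with 2.04 ± 0.20 RPKM in threat and 1.16 ± 0.36 RPKM in naive libraries, a difference of 0.73 ± 0.19 (limma adjusted p = 0.0928). All 27 bins called between threat and place were higher in threat than in naive libraries, in a comparison that uses the same threat libraries, and 13 had an unadjusted p under 0.05.

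For place against naive at 24 h, 0 of 132 bins were called in limma, where 0.0082% of all tested bins were. At an unadjusted p under 0.05 there were 10, or 7.58%, against 4.28% of all bins, and all 10 were lower in place, as were 3.05% of all bins. The median difference was -0.11 in the locus and -0.04 over all bins, and 94 of the 132 bins were lower in place. Higher in place were 28.8% of the locus bins, against 38.9% of all bins. The lowest p was that of a bin of Pcdhb2 that begins at 30084501, at 0.796 ± 0.246 RPKM in place and 1.30 ± 0.24 RPKM in naive libraries, a difference of -0.59 ± 0.18 (limma adjusted p = 0.996). A PCDHA4 bin that begins at 29671001 averaged 1.01 ± 0.10 RPKM in place and 1.37 ± 0.04 RPKM in naive libraries, with the same adjusted p.

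At 1 h no locus bin passed the threshold. For threat against naive, limma called 0 of 248 locus bins, where 0.016% of all tested bins were called. At an unadjusted p under 0.05 there were 77 (31%), against 15.4% of all tested bins, and 76 of the 77 were higher in threat, against 14.7% of all bins. The median difference was 0.265 in the locus, against 0.171 over all bins. With median-ratio scaling 35 locus bins had an unadjusted p under 0.05, against 9.15% of all bins, and the locus median was 0.086. With quantile normalization there were 17, against 7.66% of all bins, and the locus median was 0.042. On the deposited scale and by array, 28 of 46 alpha window bins had an unadjusted p under 0.05, 13 of 58 beta and 8 of 46 gamma window bins. The PCDHA7 bin that begins at 29692001 held 14.6, 12.4 and 9.35 RPKM in threat, 6.38, 6.81, 7.59 and 11.3 in place, and 6.86, 6.17 and 9.74 in naive libraries. Threat and naive libraries overlapped there, and the difference was 0.66 ± 0.18 (limma adjusted p = 0.144). Without threat replicate 3, the lowest threat library in this bin, 19 locus bins were called between threat and naive, and without naive replicate 3 there were 2. The share of all tested bins called in these fits was not recorded.

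For threat against place at 1 h, limma called 0 of 248 bins, where 0.0174% of all tested bins were called. At an unadjusted p under 0.05 there were 49 (19.8%), against 9.98% of all bins, all of them higher in threat, against 9.32%, and the median difference was 0.207, against 0.131. With median-ratio scaling there were 24, against 6.47% of all bins, and the locus median was 0.072. With quantile normalization there were 8, against 5.06% of all bins, and the locus median was 0.028. On the deposited scale, without threat replicate 3 there were 3 calls and without place replicate 4 there were 2, and the share of all tested bins called was not recorded. For place against naive at 1 h, limma called 0 of 248, where 0.00285% of all tested bins were called, and 2 had an unadjusted p under 0.05, or 0.806%, against 3.34% of all bins. Here the median difference was 0.067, against 0.039. On each of the other scales 9 had an unadjusted p under 0.05, against 4.40% of all bins with median-ratio scaling and 4.89% with quantile normalization. Of the 27 bins called at 24 h between threat and place, all were tested at 1 h, 25 were higher in threat than in place at that time, and 11 of these comparisons had an unadjusted p under 0.05. At 1 h, 213 of all 248 locus bins (85.9%) and 75.4% of all tested bins were higher in threat than in place.

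The mean of alpha windows at 1 h was 6.24, 5.55 and 4.56 RPKM in threat, 4.64, 3.49, 4.16 and 5.39 in place, and 3.78, 3.84 and 4.59 in naive libraries, so the groups overlapped. The exact 2-sided permutation test gave p = 0.171 for threat against place and p = 0.2 for threat against naive, with 0.353 each after adjustment. The share of all reads in tested bins was 55.3, 54.3 and 47.6% in threat, 46.7, 41.8, 45.0 and 52.4% in place, and 42.8, 45.1 and 47.5% in naive libraries, and it put the libraries of each group in the same order as the alpha windows. After division of each library by its median-ratio size factor, an alternative chosen after seeing the data, alpha windows at 1 h averaged 4.95 ± 0.44 in threat, 4.44 ± 0.41 in place and 4.25 ± 0.28 RPKM in naive libraries. The difference of threat from naive was then 0.22 on the log2 scale, against 0.42 as deposited, and that of threat from place 0.16, against 0.30.

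As 1 value per library, the mean over the whole locus was 0.614, 0.566 and 0.482 RPKM in threat, 0.501, 0.427, 0.472 and 0.560 in place, 0.446, 0.457 and 0.504 in naive and 0.266, 0.264 and 0.263 in input libraries of 1 h. At 24 h it was 0.322, 0.323 and 0.314 RPKM in threat, 0.311, 0.309, 0.294 and 0.294 in place, 0.322, 0.317 and 0.299 in naive and 0.300, 0.300 and 0.294 in input libraries. At 24 h captured and input libraries thus nearly met as averages over the locus, since the windows were above input and the stretches between them below it. The threat mean exceeded the place mean by 0.084 on the log2 scale at 24 h (exact 2-sided permutation p = 0.0571, the smallest possible). It exceeded the naive mean by 0.24 at 1 h (exact permutation p = 0.2) and by 0.035 at 24 h (exact permutation p = 0.5). These differences depend on the scale. Counted as a share of the reads in tested bins, the threat mean exceeded the naive mean by 0.022 at 1 h, and with median-ratio scaling by 0.040. At 24 h the differences turned to -0.215 against place and -0.193 against naive libraries as a share of these reads, and to -0.241 and -0.237 with median-ratio scaling.

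Whether the difference from naive libraries itself differed between the times was tested in 129 locus bins that passed the filter at both. In limma, 0 were called for threat against naive, where 0.00135% of all bins tested were, and 0 for place against naive, where 0% were. At an unadjusted p under 0.05 there were 6 in each, or 4.65%, against 3.91% and 3.87% of all bins.

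The RNA of the clustered protocadherin genes was mostly low, and 1 of 32 tested genes passed the threshold in any comparison. Of the 42 genes, 32 reached 1 FPKM in at least 5 libraries and were tested in limma on log2(FPKM + 1), with adjustment over 13153 genes. The highest level was that of Pcdhga12, at 34.9 FPKM over the 34 libraries, and Pcdha9, Pcdha8 and Pcdhac2 followed at 13.6, 13.5 and 10.4 FPKM. The rows of these 4 genes run to the end of their array and so include constant exons that other members share. The next were Pcdhga7 at 4.35, Pcdhga2 at 4.12, Pcdhgb7 at 3.26, Pcdhga10 at 3.22, Pcdhb9 at 2.98 and Pcdhgb8 at 2.96 FPKM. Pcdhb1, the beta gene nearest to the alpha array, was listed at 0 in most libraries and reached 0.0091 FPKM at most. Protocadherin exons resemble each other, and how reads that match several of them were counted is not given in the sources used here, so single genes are uncertain to that extent. Across the 37 genes whose row is a single short stretch, the window level and the FPKM had a Spearman correlation of -0.218 at 1 h and -0.150 at 24 h. Within the arrays the sign differed: it was 0.286 at 1 h and 0.643 at 24 h over 7 alpha genes, 0.494 and 0.077 over 18 beta genes, and 0.056 and -0.462 over 12 gamma genes. These too are descriptions over genes that share libraries.

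Pcdhb8, a beta gene with a start bin that was below input in captured DNA, was the only member called, and it was higher in both threat and place libraries of 24 h than in naive libraries. Its level was 2.61, 2.55, 1.76, 1.57, 2.22 and 2.53 FPKM in threat 24 h libraries, with a lowest of 1.57, a median of 2.38 and a highest of 2.61, and 2.35, 1.43, 2.20, 2.09 and 1.68 FPKM in place 24 h libraries. In the 9 naive libraries the lowest was 0.443, the median 0.759 and the highest 1.81 FPKM. The naive libraries lay in a low and a high range, with 4 between 1.39 and 1.81 and 5 between 0.443 and 0.759 FPKM, and 2 were above the lowest threat 24 h library. The difference was 0.70 ± 0.14 for threat against naive (log2(FPKM + 1), SE; limma adjusted p = 0.00224) and 0.58 ± 0.15 for place against naive (limma adjusted p = 0.0242). Threat and place 24 h libraries overlapped (0.12 ± 0.16, limma adjusted p = 1.00). At 1 h the gene averaged 1.18 ± 0.36 FPKM in 8 threat and 1.17 ± 0.40 FPKM in 6 place libraries, against 1.03 ± 0.55 FPKM in naive libraries (SD), and the differences were 0.13 ± 0.13 and 0.13 ± 0.14 with limma adjusted p of 0.675 and 0.835. In the methylation data, the Pcdhb8 window averaged 0.772 RPKM in threat, 0.762 in place and 0.645 in naive libraries of 24 h.

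**Figure D5:**
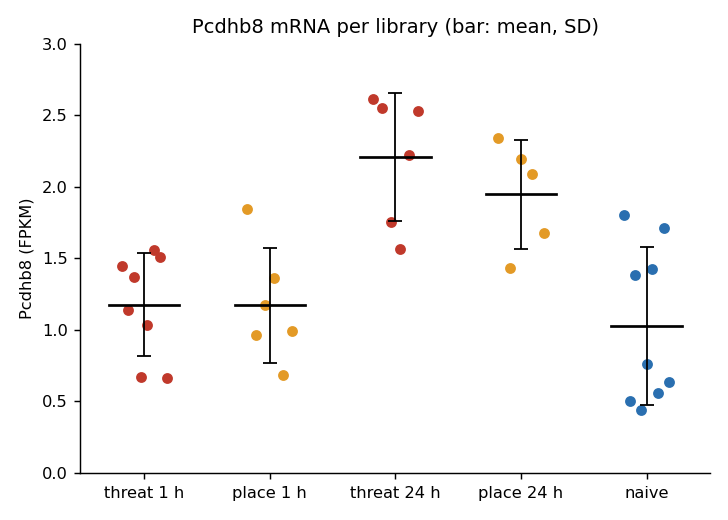
FPKM of Pcdhb8 (y axis) in each RNA library of the threat 1 h, place 1 h, threat 24 h, place 24 h and naive groups; points are libraries, bars are the group mean and SD. Threat 24 h libraries lie between 1.57 and 2.61 FPKM and naive libraries between 0.443 and 1.81 FPKM.

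At 24 h, threat against naive thus called 1 of 32 members, where 10.1% of all genes were called and 4.32% were called higher, and place against naive called 1 of 32, where 5.05% were called and 1.49% called higher. The members had a median difference of 0.03 for threat and 0.04 for place, against 0.01 and 0.02 over all genes. In the other comparisons limma called 0 of 32: threat against naive at 1 h (0.928% of all genes called), place against naive at 1 h (0.129%), threat against place at 1 h (0%) and threat against place at 24 h (0%). At an unadjusted p under 0.05 there were 5, 3, 2 and 0 members in these 4 comparisons, against 16.1, 9.76, 4.26 and 2.9% of all genes. In the 24 h comparisons with naive libraries there were 3 for threat and 2 for place, against 26.2 and 21.9% of all genes. At 1 h the median difference of the members was -0.08 for threat and -0.05 for place against naive, against 0.02 and 0.00 over all genes.

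The RNA counts depend on which naive libraries are used. The table lists naive replicates 5 to 9 and 1 to 4 as separate blocks of columns, a split known from an earlier analysis and not a labelled batch. With naive replicates 1 to 4 alone, 5 members were called at 24 h for threat and 5 for place, and 0 at 1 h. With naive replicates 5 to 9 alone, 9 members were called at 1 h for threat and 8 for place, and at 24 h 1 for threat and 0 for place. The share of all genes called with either block alone is not given here, so these counts are not a result about the members. Pcdhb8 kept its difference against either block, at 0.70 and 0.69 for threat at 24 h (limma adjusted p = 0.00232 and 0.0224). Its place difference of 24 h lost the threshold with replicates 5 to 9 alone (limma adjusted p = 0.147), with only the 2 groups in the fit (0.14), and without naive replicate 4 (0.0547), place replicate 1 or place replicate 3.

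Other genes of the pathway were followed in the RNA from 3 lists. Of 19 tested chromatin factors that act on these genes, 0 rose and 2 fell for threat against naive at 24 h, where 10.1% of all genes were called, and 0 rose and 3 fell for place against naive, where 5.05% were. Setdb1, a histone methyltransferase tied to gene silencing, fell by 0.23 in threat and by 0.22 in place libraries (limma adjusted p = 0.0118 and 0.037). Dnmt3a, a de novo DNA methyltransferase, fell by 0.21 and by 0.23 (limma adjusted p = 0.00358 and 0.00622). Tet2, which oxidises methylcytosine, fell by 0.19 in place libraries (limma adjusted p = 0.0456) and differed by -0.12 in threat libraries (0.141). Of 16 cytoplasmic partners of the proteins, 1 rose in each comparison, where 4.32% of all genes were called higher for threat and 1.49% for place. It was Pdcd10, by 0.22 ± 0.06 in both (limma adjusted p = 0.012 and 0.0246). Of 10 tested protocadherins that lie outside the clusters, 2 were called for threat against naive at 24 h, against 10.1% of all genes. Pcdh17 was higher by 0.42 ± 0.13 in threat than in naive libraries (limma adjusted p = 0.0325), Pcdh15 fell by 0.20 (0.0312), and none passed for place, where 5.05% of all genes did. None of the 3 lists had a called member in the other 4 comparisons.

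The RNA libraries carried markers of CA1 pyramidal cells, such as Wfs1 at 114 and Mpped1 at 78.6 FPKM on average, beside those of neighbouring cells. Of 6 CA1 markers looked for, 4 were found, and their mean log2 level ranged from 3.80 to 5.03 over the libraries. That of 4 CA2 and CA3 markers (Rgs14, Pcp4, Amigo2 and Bok) ranged from 4.01 to 4.97, and in some libraries it was above the CA1 mean. The dentate marker C1ql2 ranged from 1.00 to 47.2 FPKM, Prox1 from 0.62 to 12.3, and the myelin gene Mbp averaged 1304 FPKM. Ttr, a choroid plexus transcript, reached 6226 FPKM, in threat 1 h libraries, and without the 2 libraries rich in it the counts of protocadherin genes called were the same in all 6 comparisons. In bulk tissue, fewer cells of a type and less RNA per cell cannot be told apart, and the part of these cell types in the Pcdhb8 difference was not tested.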

How the data were processed

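Methylated DNA was captured with a MethylMiner kit, per the labels, and deposited as RPKM per 500-nt bin; polyA+ RNA was deposited by the authors as FPKM per gene. The builds rn5 and mm10, Bowtie and TopHat 1.4.0 appear in the submitters' processing notes, whose list does not give the role of each. The tables are titled with a mouse build, but their positions end as those of rat rn5 do (chromosome 18 at 87229863), so positions are given in rn5; 21 partial bins at chromosome ends were left out. Whole reads were recovered from the deposited RPKM at 100% of values (tolerance 0.1 reads); no libraries were identical.

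Tests used limma 3.58.1 with trend (R 4.3.3); each time had its own fit to 10 captured libraries, and 34 RNA libraries shared 1 fit. The threshold was an adjusted p of 0.05. Exact permutation tests took 2 times the smaller tail as the 2-sided p. No batch labels were given. The script was tested on simulated data. Bins and genes to name were taken from the called bins, the 5 locus bins of lowest p per contrast, the 10 highest bins per time, gene start bins, the 10 genes of highest FPKM, called genes, and called members of the lists. The members, lists and this rule were chosen with earlier results of these data known.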

Additional observations from a re-analysis of the deposited data

Results flagged for a closer look

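In groups of 4 to 10 libraries, a value was looked at again where the highest or lowest library stood far from the rest of its group. This was done for 136 groups of values and marked 4, where chance marks about 1 in 20 groups. In the PCDHA7 window, the bin that begins at 29690501 held 3.36 RPKM in place replicate 4 of 1 h, while the nearest place library had 1.90 RPKM. This library also had the largest share of its reads in tested bins among the place libraries of 1 h, at 52.4%. The bin between genes that begins at 30058001 held 1.76 RPKM in place replicate 1 of 24 h, against 1.45 RPKM in the nearest place library. Pcdhgb7 reached 3.29 FPKM in place replicate 6 of 1 h, against 2.78 FPKM in the nearest. Pcdhgb8 reached 4.88 FPKM in threat replicate 3 of 1 h, against 3.44 FPKM in the nearest.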

How the results depend on the processing

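Of the values recomputed under other settings for whole comparisons, 482 kept their direction and side of the threshold, or a count within 1.5 times, 34 counts moved further and 14 reversed; for single bins and genes, 730 kept their side of the threshold, 18 gained it, 257 lost it and 0 reversed. The cause was not tested unless stated. Between threat and place at 24 h, 27 locus bins became 4 without the input rule, 0 without any filter, and 0 with median-ratio scaling or quantile normalization. Leaving out 1 library gave 0 to 48 calls here (25, 19 and 31 without naive replicates 1, 2 and 3), 0 to 19 for threat against naive at 1 h, 0 to 3 for threat against place at 1 h, and 0 to 2 for threat against naive at 24 h (2 without naive replicate 1). edgeR on recovered reads, planned as an alternative, is not reported because the deposited values are RPKM. With no filter, 2 bins were called at 1 h for threat against naive and 2 for threat against place. The share of all bins called was not recorded for fits with a library left out, another filter or a replicate block.

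The whole-locus level reversed for threat against naive at 24 h (-0.24 with median-ratio scaling and -0.19 as a share of reads in tested bins), for place against naive at 24 h (0.0041 and 0.022) and for threat against place at 24 h (-0.24 and -0.21). At 1 h the difference of place against naive was -0.0066 without place replicate 4; leaving out 1 library put it between -0.0066 and 0.125. Window means divided by median-ratio size factors, added after seeing the data, reversed for threat against naive at 24 h in alpha (-0.019), beta (-0.065) and all windows (-0.022), for place against naive at 24 h in gamma windows (0.023), and for place against naive at 1 h in beta (-0.0062) and gamma windows (-0.015).

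Replicate numbers did not pair libraries: same-numbered captured libraries deviated together with correlations of -0.142 to 0.038 at 1 h and -0.056 to 0.051 at 24 h, and RNA libraries with -0.50 to 0.59. With a replicate block, 1 bin was called for threat against place at 1 h and 5 for threat against naive at 24 h, 34 for threat against place at 24 h, and the locus level of place against naive at 1 h was -0.0077.

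For RNA at 24 h, a filter of 5 FPKM left 0 calls for threat and 0 for place against naive, since Pcdhb8 is below it. Fitting only the groups compared left 0 for place. Leaving out 1 library gave 1 to 2 calls for threat (2 without threat replicate 3 of 1 h) and 0 to 2 for place (0 without place replicates 1 or 3 or naive replicate 4). Naive replicates 1 to 4 alone gave 5 and 5 at 24 h, and naive replicates 5 to 9 alone gave 9 and 8 at 1 h and 0 for place at 24 h. The share of all genes called in these fits is not given here. Depth limits single bins: a tested locus bin held 27.5 to 68 reads in the median library, and the PCR duplicates among them are unknown.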

Other observations

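Captured DNA also gathered outside the first exon windows of the named genes. The pair of bins that begin at 30115501 and 30116001, between Pcdhb5 and Pcdhb6, averaged 1.96 and 2.10 RPKM over captured libraries of 24 h, more than any other bin of the locus at that time. At 1 h they averaged 1.74 and 4.01 RPKM and ranked 178th and 75th. Another pair that begins at 30058001 and 30058501, between Pcdhb1 and Pcdhb2, averaged 1.80 and 1.76 RPKM at 24 h and 3.48 and 2.57 RPKM at 1 h. The RNA data list no gene at either place.

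In the downstream part of the Pcdha8 and Pcdha9 rows, the bins that begin at 29709501, 29716501 and 29722501 reached 9.38, 10.7 and 10.2 RPKM at 1 h. This is near the level of the highest single bins of the alpha first exon windows, with a median of 9.24 and a maximum of 10.6 RPKM. The RNA data give no exon positions for these rows. The first and the last of these 3 were also among the bins called higher in threat than in place libraries at 24 h.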
